A study of Homo sapiens with 12 samples.

Results

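The nuclear genes that encode subunits of the mitochondrial respiratory chain, complexes I to IV, were followed in NS-SV-AC cells, a long-established line of human salivary acinar origin. The set held 57 of the 60609 genes in the deposited files: 36 NDUF genes of complex I, 4 SDH genes of complex II, 6 UQCR genes and CYC1 of complex III, and 10 COX genes of complex IV. They were taken by gene symbol, by a rule that uses no measured value but was set with earlier results of these data known, and other known nuclear subunits are not analysed here. Each library gave a level per gene in TPM (a transcript's length-corrected share of its library), summed over the gene's transcripts. All 57 reached 1 TPM in at least 2 of the 12 libraries, as did 17185 genes in all.

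The cells received 1 of 3 treatments and 1 of 2 transfections, with 2 libraries in each of the 6 groups. The treatments were DMSO (the solvent control), 20 micromolar 2-CM (2-C'-Methyladenosine in the series text) and 20 micromolar RES (resveratrol). The unit is written in the labels as μm and is read here as micromolar. Each compound was added 24 h before the transfection and once more with it, and the controls had an equal volume of DMSO. The transfection lasted 14 h and carried poly I:C, which mimics viral double-stranded RNA and sets off the interferon response, or the control that the labels name depc. The labels give 48 h of growth and no separate cultures for the replicates, so p-values measure only the spread between these libraries, which may be technical. The RNA was poly(A)-selected, made into stranded libraries and read as paired 101-base reads.

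By the files' own coverage the libraries held 31.2 to 49.4 M estimated reads. All 6 interferon-induced genes checked (OAS1, OAS2, IFIT1, IFIT3, ISG15 and MX1) rose with poly I:C under each treatment, with median log2 fold changes of 4.92 under DMSO, 6.36 under 2-CM and 4.21 under RES. Of 8 salivary acinar markers only BHLHA15 reached 1 TPM and 4 (AQP5, PRB1, MUC7 and STATH) were at 0 in every library. Of 6 epithelial markers 3 reached 1 TPM (KRT8, KRT18 and EPCAM), as did 3 of 5 fibroblast markers (COL1A1, DCN and LUM), 1 of 4 blood markers (CD68) and 0 of 3 endothelial markers. Summed levels ranged from 1098 to 3530 TPM for the epithelial list, 0.507 to 2.69 for the acinar list, 30.0 to 107.5 for the fibroblast list, 1.68 to 8.80 for the blood list and 0 to 0.258 for the endothelial list.

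Complex I passes electrons from NADH, and complex II those from succinate, to ubiquinone in the inner mitochondrial membrane. Complex III hands them on to cytochrome c, and complex IV (cytochrome c oxidase) to oxygen. Complexes I, III and IV pump protons, and ATP synthase (complex V) uses the gradient. Most subunits are encoded in the nucleus, translated in the cytosol and imported, while a few core subunits of complexes I, III and IV come from mitochondrial DNA, so that each of these complexes joins products of both genomes. Complex II is wholly nuclear. 2-C-methyladenosine is known as an inhibitor of mitochondrial RNA polymerase. The transcription factors NRF1, GABP, YY1 and SP1 are known to bind promoters of many nuclear respiratory genes.

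A recurring feature of the results below is the base composition of the transcripts, so the last 120 coding bases of 4 members are shown first, with G and C in capitals (stop codon left out, GENCODE 44, GRCh38). NDUFB5 (chr3:179604690-179627647, + strand) and SDHD (chr11:112086824-112120016, + strand) are a membrane-arm subunit of complex I and a membrane anchor of complex II, and both were higher with poly I:C under 2-CM. NDUFS7 (chr19:1383527-1395589, + strand) holds the iron-sulfur cluster that passes electrons to ubiquinone, NDUFB7 (chr19:14566078-14572066, − strand) is a membrane-arm subunit, and both were lower there. G and C make up 43.3% of the bases shown for NDUFB5, 49.2% for SDHD, 65% for NDUFS7 and 66.7% for NDUFB7. Over the most abundant transcript of each gene they make up 43.2%, 39.8%, 66.9% and 64.9%. Over the whole coding sequence from which the bases come they make up 45.5%, 53.5%, 66.2% and 65.9%. The 4 were chosen as the called members with the largest rises and falls with poly I:C under 2-CM, so they are not typical members.
NDUFB5: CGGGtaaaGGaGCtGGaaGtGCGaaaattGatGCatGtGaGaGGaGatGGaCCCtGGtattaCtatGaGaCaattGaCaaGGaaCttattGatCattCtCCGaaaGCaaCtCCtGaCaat
SDHD: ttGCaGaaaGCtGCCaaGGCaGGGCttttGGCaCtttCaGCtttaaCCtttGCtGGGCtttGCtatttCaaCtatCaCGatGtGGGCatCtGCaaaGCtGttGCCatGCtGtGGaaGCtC
NDUFS7: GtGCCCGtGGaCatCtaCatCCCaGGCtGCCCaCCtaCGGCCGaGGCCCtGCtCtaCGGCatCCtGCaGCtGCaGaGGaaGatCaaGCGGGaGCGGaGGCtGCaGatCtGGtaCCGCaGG
NDUFB7: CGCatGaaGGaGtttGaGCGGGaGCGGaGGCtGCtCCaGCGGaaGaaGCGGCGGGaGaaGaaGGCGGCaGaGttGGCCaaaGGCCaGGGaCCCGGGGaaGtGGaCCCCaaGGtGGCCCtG

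Over the 57 members the GC content of the most abundant transcript ran from 32.4% (NDUFA5) to 66.9% (NDUFS7), with a median of 48.5%. The median over the 17170 tested genes with a value was 49.3%. The members' transcripts were short, with a median length of 675 bases against 2342, and abundant, with a median level of 177 TPM against 7.68. By complex, the median GC content was 49.3% for complex I, 46.3% for complex II, 45.8% for complex III and 50.2% for complex IV.

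Promoter sequence was matched in RefSeq (GRCh38.p14) for 49 of the 57 members, as 300 bases from 250 before to 50 after the start that RefSeq gives the gene, which can lie away from the GENCODE start used for gene positions elsewhere. These letter strings were searched on both strands: GCATGCGC (NRF1 core), CCGGAAGT (GABP, an ETS site), AAGATGGC (YY1) and GGGCGG (SP1). The NRF1 core was found in 9 of 49 member promoters (18.4%) and in 3.27% of all 27305 promoters, CCGGAAGT in 7 (14.3%, against 4.44%), AAGATGGC in 8 (16.3%, against 3.03%) and GGGCGG in 29 (59.2%, against 44.6%). At least 1 of the NRF1, GABP and YY1 strings was in 19 of 49 (38.8%), against 9.94% of all. Among members called with poly I:C under 2-CM this combined share was the same in both directions, 5 of the 13 higher and 5 of the 13 lower that have an entry (38.5%). For single strings the counts differed: the NRF1 core was in 4 of the higher and 2 of the lower, and CCGGAAGT in 2 and 3. The YY1 string was in 1 and 2, and the SP1 string in 7 and 10. The median promoter GC content was 59.3% for the higher and 62.3% for the lower members. It was 61% over the 49 member promoters and 58.3% over all promoters, which were not limited to the genes tested here. A match describes the letters only. The promoters of 2 members from each direction are shown 5′ to 3′ with every match in capitals: SDHD (chr11:112086623-112086922, + strand), NDUFS1, the largest complex I subunit (chr2:206159395-206159694, − strand), NDUFS7 (chr19:1383657-1383956, + strand) and NDUFB7 (chr19:14572017-14572316, − strand).
SDHD: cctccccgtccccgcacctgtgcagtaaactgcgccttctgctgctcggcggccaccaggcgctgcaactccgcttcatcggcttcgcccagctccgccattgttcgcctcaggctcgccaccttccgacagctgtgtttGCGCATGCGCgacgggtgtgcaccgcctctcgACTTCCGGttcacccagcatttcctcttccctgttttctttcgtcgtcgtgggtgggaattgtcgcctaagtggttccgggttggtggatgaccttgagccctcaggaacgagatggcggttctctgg
NDUFS1: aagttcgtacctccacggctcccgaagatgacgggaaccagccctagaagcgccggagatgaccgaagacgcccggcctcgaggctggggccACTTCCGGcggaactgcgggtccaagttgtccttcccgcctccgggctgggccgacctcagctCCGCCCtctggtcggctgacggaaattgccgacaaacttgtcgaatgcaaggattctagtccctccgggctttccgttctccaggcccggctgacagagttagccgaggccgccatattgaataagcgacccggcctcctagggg
NDUFS7: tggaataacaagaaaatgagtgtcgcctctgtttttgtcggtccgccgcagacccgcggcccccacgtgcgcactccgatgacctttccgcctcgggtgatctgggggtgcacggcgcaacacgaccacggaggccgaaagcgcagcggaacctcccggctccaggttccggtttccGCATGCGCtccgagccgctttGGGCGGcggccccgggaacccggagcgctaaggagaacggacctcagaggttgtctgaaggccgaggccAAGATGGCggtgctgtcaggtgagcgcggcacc
NDUFB7: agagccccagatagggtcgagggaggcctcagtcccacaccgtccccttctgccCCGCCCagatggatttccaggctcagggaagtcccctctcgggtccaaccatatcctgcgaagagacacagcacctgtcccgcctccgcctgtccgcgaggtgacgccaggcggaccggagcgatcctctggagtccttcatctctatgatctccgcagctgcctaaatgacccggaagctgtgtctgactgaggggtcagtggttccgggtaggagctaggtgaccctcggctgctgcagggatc
SDHD holds the NRF1 core and its reverse complement overlapping in 1 run (counted as 2 matches) and 1 GABP string. NDUFS1 holds 1 GABP and 1 SP1 string, NDUFS7 1 each of NRF1, YY1 and SP1, and NDUFB7 1 SP1 string.

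Together the 57 genes made up 1.64% to 2.00% of all TPM as group means. Complex I and complex IV carried most of it. Summed over the 36 complex I genes the level was 7868 ± 344 TPM (SD, n = 2) in the DMSO depc group and 8423 ± 74.1 with poly I:C. Under 2-CM it was 9353 ± 308 with depc and 7784 ± 185 with poly I:C, and under RES 7799 ± 619 and 7481 ± 187. The complex I sums of the libraries did not overlap between transfections under DMSO (higher with poly I:C) or 2-CM (lower), and overlapped under RES. In bulk RNA, fewer cells of a type and less RNA per cell cannot be told apart.

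The 4 complex II genes summed to 470 ± 70.1 TPM with depc and 566 ± 116 with poly I:C under DMSO, to 450 ± 51.6 and 749 ± 8.09 under 2-CM, and to 469 ± 122 and 558 ± 89.5 under RES. The 7 complex III genes summed to 1980 ± 11.5 and 2207 ± 2.42 under DMSO, to 2253 ± 16.6 and 1924 ± 18.5 under 2-CM, and to 1893 ± 54.3 and 1840 ± 123 under RES. The 10 complex IV genes summed to 6707 ± 312 and 8190 ± 300 under DMSO, to 7899 ± 273 and 6504 ± 229 under 2-CM, and to 6383 ± 483 and 6490 ± 692 under RES. Under 2-CM, complexes I, III and IV summed lower and complex II higher with poly I:C in TPM, without overlap of the libraries in any of the 4, and the complex II sum turned lower with median-of-ratios scaling. Under DMSO complexes I, III and IV summed higher without overlap, while complex II overlapped. With 2 libraries a group no exact test of a single sum can reach the threshold of 0.05, and a sum follows its most abundant genes.

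**Figure D1:**
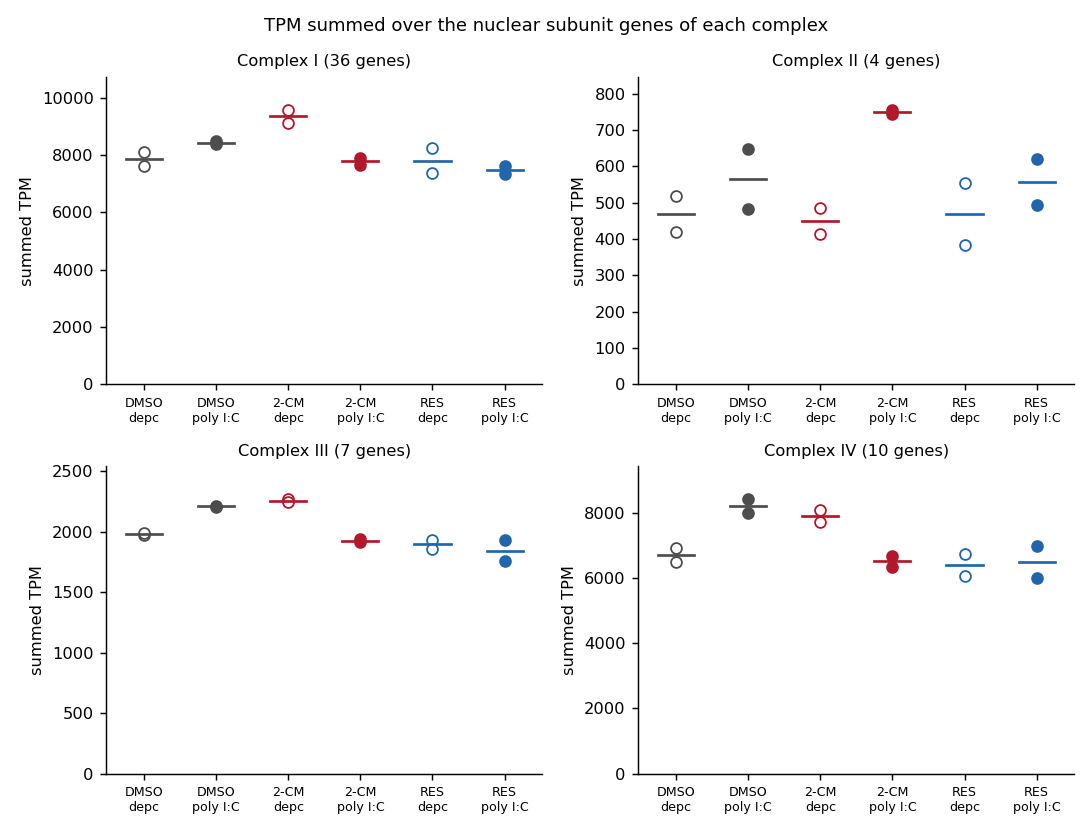
Summed TPM (linear axis from 0) of the nuclear subunits of complexes I, II, III and IV in each of the 12 libraries, with a point per library (open for depc, filled for poly I:C) and a line at the group mean. Under 2-CM the complex I, III and IV sums are lower with poly I:C than with depc and the complex II sum is higher in TPM (749 against 450), though not with median-of-ratios scaling.

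Within complex I the levels spanned from NDUFA13 (chr19:19515736-19529054), a subunit at the junction of the matrix and membrane arms, to NDUFA3 (chr19:54102728-54109257), a small membrane-arm subunit. Under DMSO NDUFA13 stood at 1081 and 1364 TPM with depc and at 632 and 970 with poly I:C, under 2-CM at 1239 and 1560 and then 569 and 630, and under RES at 868 and 1266 and then 859 and 697. NDUFA13 was lower with poly I:C in both libraries of each treatment than in either depc library of that treatment. The NDUFA3 libraries read 1.43 and 3.36 TPM (DMSO depc), 1.24 and 3.06 (DMSO poly I:C), 1.69 and 1.52 (2-CM depc), 1.000 and 0.890 (2-CM poly I:C), 0.793 and 1.29 (RES depc) and 1.72 and 1.30 (RES poly I:C). NDUFA3 was close to the 1 TPM filter throughout, and its libraries overlapped between transfections under DMSO. Its 5 annotated gene copies hold 4.9% to 77.9% of the TPM summed over the gene and its copies, from 16 to 69 estimated reads for the gene, so its level is uncertain. In TPM, NDUFV3, a subunit at the NADH-binding tip, varied least of the members, by a factor of 1.19 over the 12 libraries with a median of 27.3 TPM. NDUFB5 varied most, by a factor of 22.0. That NDUFV3 is steady depends on the scaling: the authors' deposited table calls it lower with poly I:C under 2-CM, at -0.88 (SE 0.18) on the log2 scale.

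The comparison of poly I:C with depc under DMSO asks how the antiviral response alone moves these transcripts. SDHC (chr1:161314257-161375340), a membrane anchor of complex II, rose, and SDHA (chr5:218241-257082), the flavoprotein that oxidises succinate, fell. Under DMSO SDHC stood at 79.1 and 60.3 TPM with depc and at 137 and 134 with poly I:C, under 2-CM at 94.7 and 80.6 and then 98.3 and 116, and under RES at 101 and 76.8 and then 116 and 98.4. Both DMSO poly I:C libraries of SDHC were above both DMSO depc libraries, with a log2 change of 0.97 (SE 0.21, adjusted p = 0.0449). With depc, SDHA measured 281 and 261 TPM under DMSO, 254 and 242 under 2-CM and 244 and 202 under RES, and with poly I:C it measured 153 and 178 (DMSO), 232 and 212 (2-CM) and 197 and 188 (RES). Both DMSO poly I:C libraries of SDHA were below both depc libraries, a log2 change of -0.71 (SE 0.16, adjusted p = 0.0465). Tests here and below are limma's moderated test on log2(TPM + 1), adjusted over 17185 genes by Benjamini-Hochberg, with calls at an adjusted p under 0.05. Fold changes on this scale understate those of low genes.

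These were the members called: 1 of 57 higher (1.75%) and 1 of 57 lower (1.75%), where 3.57% of all genes tested were called, 0.739% higher and 2.83% lower. The members' shares lie near that background. Neither SDHC nor SDHA was called with FPKM, upper-quartile scaling, median-of-ratios scaling or limma-voom, or with any 1 of the 12 libraries left out except a RES depc library. Both calls were also lost with a replicate block, with no filter on low genes, and in a fit to the compared groups alone. The unadjusted p was under 0.05 for 19 members, and limma-voom on estimated reads called 1, higher. The members' replicates stood apart more often on the high side: both poly I:C libraries were above both depc libraries for 29 of 57 (50.9%, against 11.5% of all genes) and below for 10 (17.5%, against 33.4%), and 18 overlapped. The members' median log2 fold change was 0.43, against -0.14 over all genes tested, with 40 positive and 17 negative. The members' median exceeded the all-gene median by 0.32 to 0.59 over the scalings and GC corrections tried. Of the markers tested 1 epithelial (KRT18, -0.92) and 1 fibroblast gene (COL1A1, -1.95) fell in the same comparison, and their part in the members' values was not tested. By complex the median was 0.39 for complex I, 0.90 for complex II, 0.29 for complex III and 0.42 for complex IV.

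The complex II anchor SDHD and the iron-sulfur subunit SDHB also had positive fold changes under DMSO without passing the test, 1.23 (SE 0.47, adjusted p = 0.196) and 0.84 (SE 0.49, adjusted p = 0.424) on the log2 scale. In complex III the hinge protein UQCRH (chr1:46303698-46316776) came nearest to a call. The UQCRH libraries read 492 and 383 TPM (DMSO depc), 911 and 848 (DMSO poly I:C), 518 and 346 (2-CM depc), 676 and 693 (2-CM poly I:C), 711 and 442 (RES depc) and 712 and 755 (RES poly I:C). Its DMSO libraries did not overlap, and the log2 fold change was 1.01 (SE 0.26, adjusted p = 0.0751). UQCRC1 (chr3:48599002-48610976), a core subunit of complex III, had -0.73 (SE 0.26, adjusted p = 0.169), and NDUFV1, the flavoprotein subunit that binds NADH, had -0.71 (SE 0.22, adjusted p = 0.111).

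The position of a member under DMSO went with its GC content: the 28 members below the members' median GC had a median log2 fold change of 0.82, with 27 of 28 positive, and the 29 at or above it had -0.11, with 13 positive. Spearman's rho between GC content and the log2 fold change was -0.76 over the 57 members and -0.38 over 17170 genes. The points share libraries and genes are not independent replicates. The same property separated replicates of 1 group: the difference of replicate 1 minus replicate 2 had rho -0.81 with GC in the DMSO depc group, -0.88 in the DMSO poly I:C group and -0.83 in the 2-CM depc group, over the same members. A smooth (lowess) trend on GC of each library's log2 deviation from the mean over all libraries was then removed. After this 17 members were called higher and 1 lower under DMSO, where the same fit called 7.68% of all genes higher and 9.18% lower. With GC and length together the members' calls were 10 and 2, against 4.74% and 4.58% of all genes. The members' median was then 0.44 and 0.32. SDHA was called in each of these fits. The authors' deposited table calls 2 members for this comparison, NDUFAB1 and NDUFC2, both higher, and 1.25% of genes with an adjusted p.

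The same transfection under 2-CM, a comparison that asks for the poly I:C response in cells given the nucleoside analogue, had the most calls of the 3. Of the 57 members 17 rose (29.8%) and 14 fell (24.6%), where 47.3% of all genes tested were called, 35.8% higher and 11.5% lower. The members therefore had a smaller share of rises and a larger share of falls than all genes. The members' median log2 fold change was 0.29 against 0.61 over all genes, and 39 members had an unadjusted p under 0.05. Both poly I:C libraries were above both depc libraries for 31 members (54.4%, against 62.6% of all genes) and below for 23 (40.4%, against 23.9%), with 3 overlapping. Of the 3 fibroblast markers tested 2 rose (DCN, 1.87, and LUM, 2.74) and COL1A1 fell (-1.14) in the same comparison. Of the 3 epithelial markers tested EPCAM rose (0.88) and KRT8 (-1.15) and KRT18 (-1.32) fell, and the acinar marker BHLHA15 fell (-0.86). The part of these cell type markers in the members' values was not tested. By complex the calls were 11 higher and 9 lower of 36 in complex I, 2 and 0 of 4 in complex II, 2 and 2 of 7 in complex III, and 2 and 3 of 10 in complex IV.

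The split depends on how the libraries are scaled, and so does the median over all genes. TPM gave 17 higher and 14 lower, FPKM 18 and 13, limma-voom 17 and 17, upper-quartile scaling 6 and 20, and median-of-ratios scaling 5 and 22. Of all genes the same fits called 35.8% higher and 11.5% lower with TPM, 35.1% and 11.7% with FPKM, 35.0% and 12.9% with limma-voom, 23.6% and 19.3% with upper-quartile scaling, and 19.3% and 22.6% with median-of-ratios scaling. The all-gene median was 0.61 with TPM, 0.40 with FPKM, 0.72 with limma-voom, 0.18 with upper-quartile scaling and 0.03 with that by median of ratios. Relative to it the members' median was lower by every scaling, with differences of -0.32, -0.27, -0.61, -0.51 and -0.58 in that order. Removal of the GC trend gave 5 higher and 19 lower with a difference of -0.36, where 13.7% of all genes were called higher and 15.3% lower. Removal of GC and length gave 6 and 18 with -0.26, against 13.2% and 15.0% of all genes. With any 1 of the 4 libraries of this comparison left out, no member was called by limma, while 18 to 41 had an unadjusted p under 0.05.

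**Figure D2:**
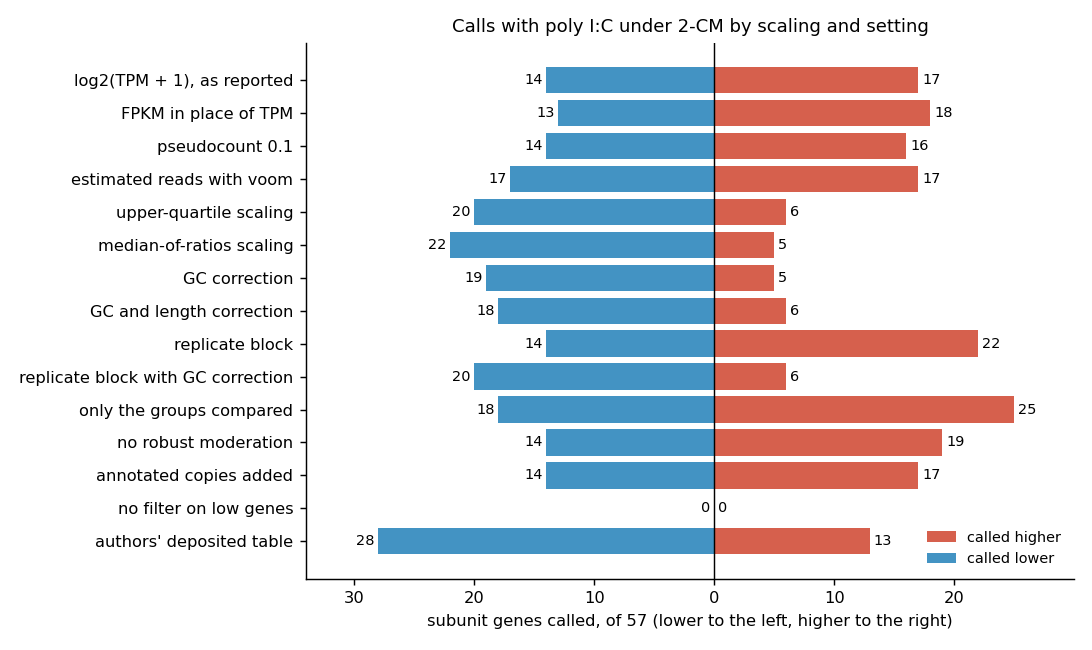
Number of the 57 members called higher (bars to the right of 0) or lower (bars to the left) with poly I:C under 2-CM, by scaling, correction and fit with all libraries in, and in the authors' deposited table. The reported TPM values give 17 higher and 14 lower, median-of-ratios scaling gives 5 and 22, and a fit with no filter on low genes gives 0 and 0.

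The upper-quartile and median-of-ratios scalings lower the fold changes of all genes together, from an all-gene median of 0.61 to 0.18 and 0.03. The GC correction moves each gene by an amount set by its GC content, with NDUFA11 (-1.31) at -0.78 and NDUFA5 (1.91) at -0.19 after it. It also removes the shift common to all genes, with an all-gene median of -0.0075 afterwards. A change of sign with it can therefore hold both parts. Of the 14 that fell, 12 were called in the same direction by all 4 other scalings and all 3 GC corrections: NDUFA11, NDUFA13, NDUFB7, NDUFB11, NDUFS7, NDUFS8, NDUFV1, UQCRC1, CYC1, COX4I1, COX5B and COX8A. NDUFB8 and NDUFB10 were the exceptions. Of the 17 that rose, 4 were called by all of them: NDUFB5, NDUFB6, SDHD and COX6C. Another 6 changed sign in at least 1 of them: NDUFA8, NDUFB4 and COX7C with median-of-ratios scaling, and NDUFB1, NDUFB4, NDUFC2, UQCRFS1 and COX7C with a GC correction. The authors' deposited table calls all 14 lower in the same direction and 11 of the 17 higher, and it gives 3 of the 17 the opposite sign. Over all 57 members that table calls 13 higher and 28 lower, and 46.4% of genes with an adjusted p in either direction. Its members' median was -0.57 against 0.08 over all genes, and 43 of the 57 had the sign found here. Called or not, 21 of 57 members changed sign under 2-CM in at least 1 scaling or GC correction, 11 under DMSO and 20 under RES.

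**Figure D3:**
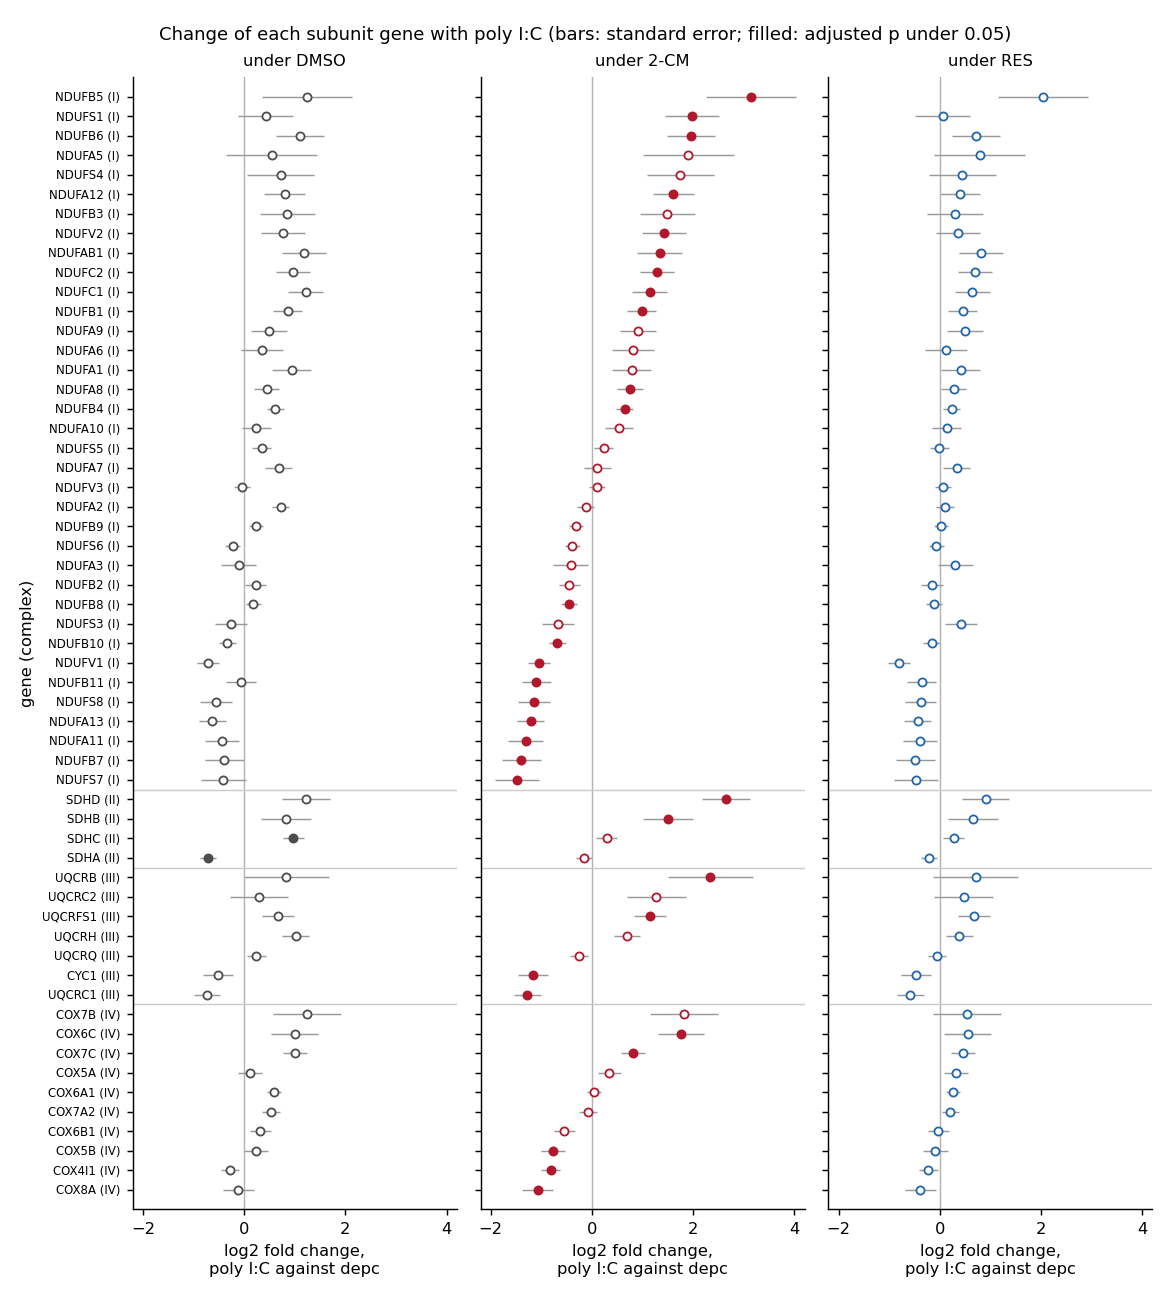
Log2 fold change of poly I:C against depc for each of the 57 members, ordered within each complex by the 2-CM value, under DMSO, 2-CM and RES, with bars of 1 standard error and filled points where the adjusted p was under 0.05. Under 2-CM the members range from NDUFB5 at 3.14 to NDUFS7 at -1.48.

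In the NADH-binding N module of complex I, NDUFV1 fell with a log2 change of -1.04 (SE 0.22, adjusted p = 0.0291). NDUFV2, its iron-sulfur partner, rose by 1.42 on the log2 scale. The iron-sulfur subunit NDUFS1 rose by 1.97 and the accessory subunit NDUFA12 by 1.61. None of these rises kept its call in every other scaling and GC correction, while the fall of NDUFV1 did. The 4 other members of the module's 8, among them NDUFV3, were not called in this fit. The authors' deposited table calls NDUFV3, NDUFA2 and NDUFS6 lower and NDUFS4 higher. Beside the module counts given here, 35.8% of all genes tested were called higher and 11.5% lower. In the Q module, which holds the ubiquinone site, 2 of 7 fell and 0 rose: NDUFS7, and NDUFS8, which carries iron-sulfur clusters, at -1.15 (SE 0.31, adjusted p = 0.0316). Under DMSO NDUFS7 stood at 137 and 176 TPM with depc and at 91.4 and 149 with poly I:C, under 2-CM at 171 and 220 and then 61.9 and 76.3, and under RES at 85.3 and 187 and then 127 and 64.7. The 2-CM poly I:C libraries of NDUFS7 were below all depc libraries, and the log2 fold change was -1.48 (SE 0.44, adjusted p = 0.0341). Within the same complex the TPM ratio of NDUFS7 to NDUFS1 went from 32.1 and 73.5 in the 2-CM depc libraries to 3.30 and 4.07 with poly I:C. It differed between replicates of 1 group as well, at 6.11 and 30.8 in the DMSO poly I:C libraries.

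In the membrane arm (21 P module members) 8 rose (38.1%) and 6 fell (28.6%) in TPM. Of all genes tested 35.8% were called higher, near that share, and 11.5% lower. NDUFB5 rose most. With depc, NDUFB5 measured 32.03 and 19.2 TPM under DMSO, 19.2 and 6.10 under 2-CM and 34.4 and 9.23 under RES, and with poly I:C it measured 134 and 26.5 (DMSO), 123 and 88.9 (2-CM) and 49.1 and 121 (RES). Both 2-CM poly I:C libraries of NDUFB5 were above both depc libraries, while replicates of the other groups lay far apart, and the log2 fold change was 3.14 (SE 0.89, adjusted p = 0.0326). Its level rests on transcripts whose assigned share ran from 0% to 78.9% between libraries. NDUFB6, also a membrane-arm accessory subunit, had a log2 change of 1.96 (SE 0.47, adjusted p = 0.0303), from 19.2 and 14.8 TPM to 69.7 and 67.3. NDUFAB1, the mitochondrial acyl carrier protein, rose by 1.34, and NDUFC2, NDUFC1, NDUFB1, NDUFA8 and NDUFB4 rose by 1.29, 1.14, 0.98, 0.75 and 0.65. Of these, NDUFC2 and NDUFB1 changed sign with a GC correction, NDUFA8 with median-of-ratios scaling, and NDUFB4 with both.

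On the falling side of the membrane arm were NDUFB7, NDUFA11 (chr19:5891276-5904006) and NDUFA13. The NDUFB7 libraries read 398 and 527 TPM (DMSO depc), 278 and 434 (DMSO poly I:C), 534 and 730 (2-CM depc), 224 and 249 (2-CM poly I:C), 240 and 494 (RES depc) and 306 and 198 (RES poly I:C). The 2-CM depc pair of NDUFB7 was the highest of the 6 pairs by mean, and its 2-CM poly I:C pair was below all 6 depc values except 1 RES depc library at 239.9. Its log2 fold change was -1.40 (SE 0.38, adjusted p = 0.0318). Under DMSO NDUFA11 stood at 362 and 462 TPM with depc and at 247 and 370 with poly I:C, under 2-CM at 462 and 602 and then 197 and 228, and under RES at 259 and 496 and then 321 and 234. NDUFA11, an accessory subunit, was likewise apart in the 2-CM groups and overlapped in the DMSO groups, with a 2-CM log2 change of -1.31 (SE 0.34, adjusted p = 0.0308). NDUFA13 had -1.21 (SE 0.27, adjusted p = 0.0303), and NDUFB11, NDUFB10 and NDUFB8 fell by 1.10, 0.69 and 0.46 on the log2 scale.

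The summed complex II level stood higher with poly I:C under 2-CM in TPM, with a log2 ratio of 0.73, while those of complexes I, III and IV stood lower (-0.28 to -0.23). That direction depends on the scaling, since the complex II ratio was 0.58 with FPKM, 0.11 with upper-quartile and -0.11 with median-of-ratios scaling. SDHD rose with a log2 change of 2.65 (SE 0.47, adjusted p = 0.0254) and SDHB (chr1:17018722-17054170), the iron-sulfur subunit, with 1.49 (SE 0.49, adjusted p = 0.0401). Under DMSO SDHD stood at 49.3 and 29.5 TPM with depc and at 131 and 62.6 with poly I:C, under 2-CM at 30.5 and 26.5 and then 167 and 201, and under RES at 59.1 and 31.7 and then 57.7 and 116. The SDHD libraries with poly I:C under 2-CM were the 2 highest of the 12. The SDHB libraries read 110 and 69.3 TPM (DMSO depc), 226 and 108 (DMSO poly I:C), 108 and 64.2 (2-CM depc), 246 and 226 (2-CM poly I:C), 151 and 71.8 (RES depc) and 125 and 220 (RES poly I:C). SDHB was apart between transfections under 2-CM and overlapped under DMSO and RES. SDHA and SDHC were not called, at -0.16 (SE 0.16, adjusted p = 0.386) and 0.29 (SE 0.21, adjusted p = 0.254), and the sign of SDHC turned negative under each GC correction and under the upper-quartile and median-of-ratios scalings (-0.67 with GC alone).

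The levels of the catalytic SDHA and the anchor SDHD lay nearer each other with poly I:C. They have the smallest and largest fold changes of complex II under 2-CM (-0.16 and 2.65) and under DMSO (-0.71 and 1.23). A ratio of members at the extremes falls by that choice, so the ratios are a description only. The TPM ratio of SDHA to SDHD was 5.70 and 8.86 in the DMSO depc libraries and 1.17 and 2.84 with poly I:C. Under 2-CM it went from 8.32 and 9.14 to 1.39 and 1.05, and under RES from 4.12 and 6.37 to 3.41 and 1.62. In each treatment both poly I:C ratios were below both depc ratios. The GC content of the most abundant transcript was 54.6% for SDHA, 46.0% for SDHB, 46.6% for SDHC and 39.8% for SDHD. Annotated copies held 13.9% to 19.5% of the TPM summed over SDHD and its copies, and 2.6% to 8.3% for SDHA, and the share of the SDHD level assigned to 1 transcript ran from 0% to 92.1% between libraries. With copies added to their parent gene the 2-CM calls were still 17 higher and 14 lower.

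**Figure D4:**
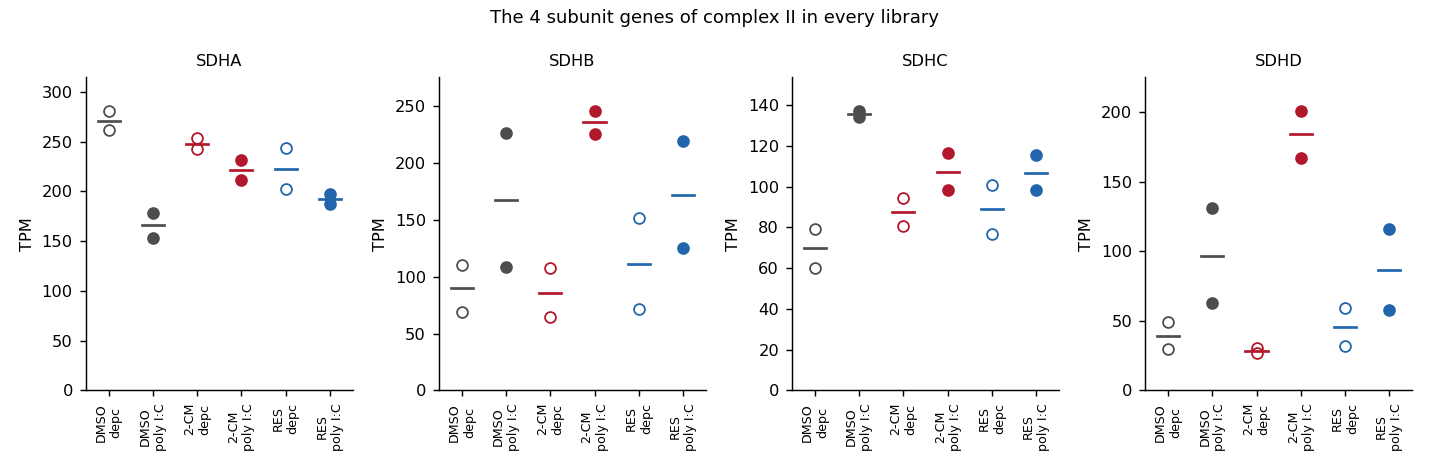
TPM (linear axes from 0, 1 axis per gene) of SDHA, SDHB, SDHC and SDHD in each of the 12 libraries, a point per library (open for depc, filled for poly I:C) with a line at the group mean. Heights can be compared within a gene only. The TPM ratios of SDHA to SDHD, which are not drawn, are 1.17 and 2.84 under DMSO, 1.39 and 1.05 under 2-CM and 3.41 and 1.62 under RES with poly I:C. In each treatment they are below both depc ratios.

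In complex III the 2 called falls were UQCRC1 and CYC1, and the 2 called rises UQCRB and UQCRFS1. With depc, UQCRC1 measured 545 and 623 TPM under DMSO, 664 and 779 under 2-CM and 388 and 571 under RES, and with poly I:C it measured 294 and 416 (DMSO), 295 and 297 (2-CM) and 380 and 258 (RES). UQCRC1 was below every depc library in both 2-CM poly I:C libraries, with a log2 change of -1.28 (SE 0.26, adjusted p = 0.0291). Its main transcript held 96.1% to 99.1% of its TPM in every library. CYC1, the cytochrome c1 haem protein, fell by 1.16 on the log2 scale. UQCRFS1, the Rieske iron-sulfur protein, rose by 1.15 and changed sign with a GC correction.

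Under DMSO UQCRB stood at 63.2 and 68.1 TPM with depc and at 181 and 75.9 with poly I:C, under 2-CM at 76.7 and 18.3 and then 236 and 161, and under RES at 160 and 33.3 and then 87.5 and 166. UQCRB (chr8:96225920-96235634), a small subunit of complex III, was apart under 2-CM but not under RES, with a 2-CM log2 change of 2.34 (SE 0.84, adjusted p = 0.0487). Its transcripts' assigned shares ran from 0% to 88.8%. The UQCRC2 libraries read 56.4 and 41.5 TPM (DMSO depc), 93.6 and 37.8 (DMSO poly I:C), 45.8 and 25.3 (2-CM depc), 82.7 and 84.7 (2-CM poly I:C), 73.8 and 23.4 (RES depc) and 49.0 and 68.9 (RES poly I:C). UQCRC2 (chr16:21953288-21983660), the core partner of UQCRC1, was the lowest member of complex III by mean level and was not called under 2-CM, at 1.27 (SE 0.58, adjusted p = 0.0924), and its sign changed with each GC correction. The TPM ratio of UQCRC1 to UQCRC2 was 14.5 and 30.8 in the 2-CM depc libraries and 3.57 and 3.51 with poly I:C.

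In complex IV, COX8A (chr11:63974620-63976543), a small membrane subunit, was the most abundant of all 57 members. With depc, COX8A measured 1375 and 1680 TPM under DMSO, 1926 and 2391 under 2-CM and 1051 and 1880 under RES, and with poly I:C it measured 1206 and 1634 (DMSO), 992 and 1055 (2-CM) and 1312 and 885 (RES). COX8A was lower in both 2-CM poly I:C libraries than in either 2-CM depc library, with a log2 change of -1.07 (SE 0.31, adjusted p = 0.0328), and overlapped under DMSO. COX4I1, the regulatory subunit IV, and COX5B, which binds zinc, fell by 0.81 and 0.77 on the log2 scale.

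COX6C (chr8:99873200-99893707), another small membrane subunit, rose. Under DMSO COX6C stood at 99.2 and 68.1 TPM with depc and at 247 and 110 with poly I:C, under 2-CM at 95.0 and 62.0 and then 284 and 242, and under RES at 142 and 87.7 and then 120 and 225. Both 2-CM poly I:C libraries of COX6C were above both depc libraries, a log2 change of 1.76 (SE 0.46, adjusted p = 0.0309). COX7C rose by 0.80 and changed sign with median-of-ratios scaling and each GC correction. The COX7B libraries read 186 and 116 TPM (DMSO depc), 577 and 213 (DMSO poly I:C), 273 and 96.7 (2-CM depc), 597 and 555 (2-CM poly I:C), 316 and 140 (RES depc) and 204 and 456 (RES poly I:C). COX7B (chrX:77899440-77907376) had the largest fold change in complex IV and missed the call, at 1.82 (SE 0.67, adjusted p = 0.0524).

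As under DMSO, the direction of a member under 2-CM went with its GC content. Of the 28 members below the members' median GC content 14 rose and 0 fell, with a median log2 fold change of 1.28 and 27 positive. Of the 29 at or above it 3 rose and 14 fell, with a median of -0.55. Over all genes tested, of any GC content, 35.8% were called higher and 11.5% lower. Shares for genes of like GC content were not computed, so these counts show no excess over such genes. Spearman's rho of GC content and log2 fold change was -0.91 over the 57 members and -0.81 over 17170 genes, as a description across genes that share the same 4 libraries. The difference between the 2-CM poly I:C replicates had rho -0.34 with GC over the members, and those replicates were the closest pair, with a median absolute difference of 0.09 on the log2 scale against 0.33 to 0.68 in the other groups.

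**Figure D5:**
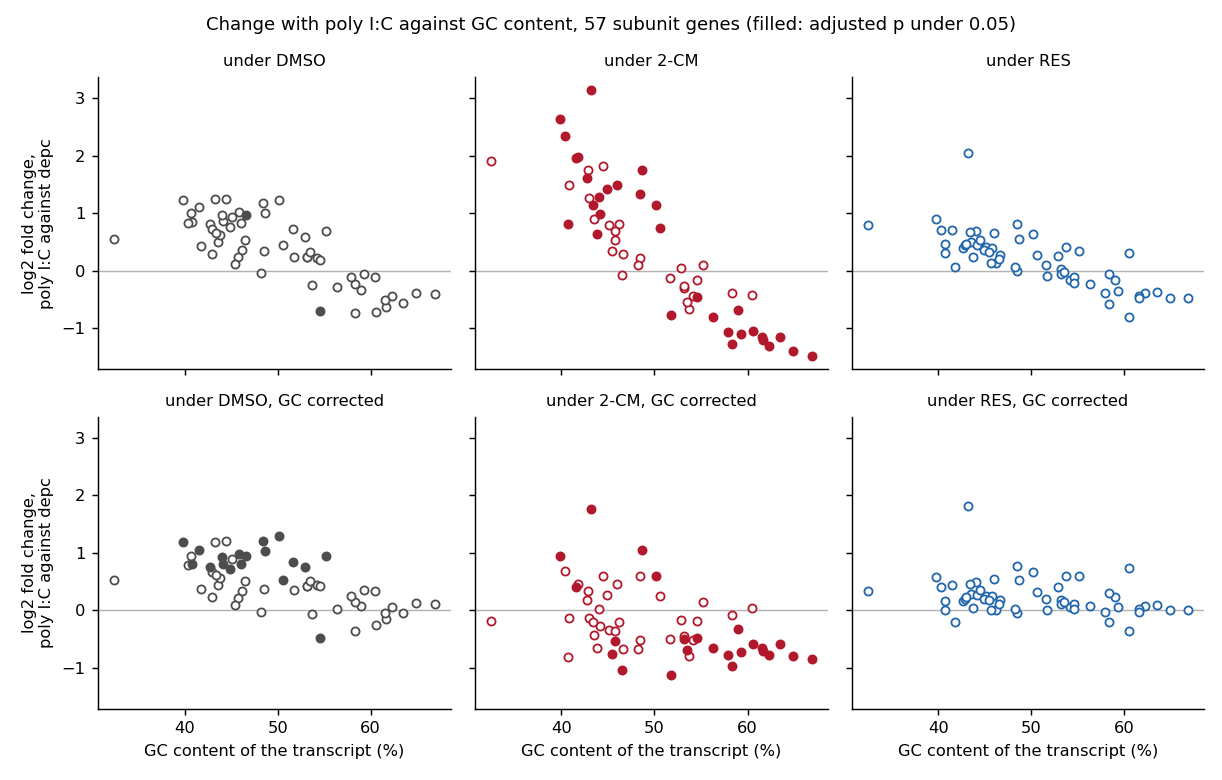
GC content of each member's most abundant transcript (horizontal, percent) against its log2 fold change of poly I:C over depc (vertical) under DMSO, 2-CM and RES, a point per member with the called members filled, in the upper row as reported and in the lower row after removal of each library's GC trend. In the upper row Spearman's rho is -0.76, -0.91 and -0.80 over the 57 members.

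Under RES, where the same transfection is compared in cells given resveratrol, 0 of 57 members were called by limma, where 0.413% of all genes were called. The unadjusted p was under 0.05 for 2 members, NDUFV1 at -0.80 (SE 0.22, adjusted p = 0.178) and NDUFB5 at 2.04 (SE 0.89, adjusted p = 0.366) on the log2 scale, and limma-voom also called 0, with 4 under 0.05 before adjustment. Both poly I:C libraries were above both depc libraries for 12 members (21.1%, against 6.05% of all genes) and below for 4 (7.02%, against 24.1%), and 41 overlapped. The members' median log2 fold change was 0.25 against -0.03 over all genes, 0.033 without RES depc replicate 2, 0.12 without RES poly I:C replicate 2, 0.39 without RES depc replicate 1 and 0.10 with GC and length removed. All 28 members below the median GC content had positive fold changes, with a median of 0.45, and the 29 others had a median of -0.12 with 9 positive. The RES replicates differed from each other along the same axis and in opposite directions, with rho of replicate 1 minus replicate 2 at -0.87 for depc and 0.85 for poly I:C. With the GC trend removed 0 members were called under RES, where 3.51% of all genes were. Among the markers tested 1 fibroblast gene, COL1A1, fell under RES (-1.09). The authors' deposited table calls 0 members here and 0.363% of genes.

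Whether the poly I:C response itself differs between treatments was tested as a difference of fold changes, which shares the DMSO libraries between the 2 tests. For 2-CM minus DMSO 0 of 57 members were called by limma, where 0.0116% of all genes were called. The lowest adjusted p was 0.172, shared by several members, of which NDUFA2, a small N module subunit, had the smallest unadjusted p, with a difference of -0.85 (SE 0.25, limma). There 10 members had an unadjusted p under 0.05 and limma-voom called 0, with 13 under 0.05. The members' median difference was -0.15 and that over all genes 0.68 with TPM. The other scalings and the GC corrections gave members' medians of -1.13 to -0.45 and all-gene medians of -0.065 to 0.60. Minus the all-gene median of the same fit, the members' median was -0.83 with TPM and -1.06 to -0.48 with the others. A fit with the replicate number as a block and the RES poly I:C numbers crossed was added after the data were seen. It called 4 members higher and 16 lower for this difference, with 39.0% of all genes higher and 2.74% lower. The crossing was chosen from the deviations of these same libraries, so its p-values do not hold as a test. For RES minus DMSO 0 of 57 were called (0% of all genes), with 3 at an unadjusted p under 0.05 (NDUFA2, SDHC and SDHA). By limma-voom 0 passed both before and after adjustment. The members' median difference was -0.28 against 0.11 over all genes, and ranged from -0.37 to -0.076 with 1 library left out.

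Without poly I:C neither compound had a called member in the fit as reported, while the GC corrections called members for RES, as given below. For 2-CM against DMSO with depc, 0 of 57 were called by limma (0.0407% of all genes), 1 had an unadjusted p under 0.05 and limma-voom called 0 (0 unadjusted). That member was NDUFB9, a membrane-arm subunit, at 987 ± 52.0 TPM under 2-CM and 718 ± 27.6 under DMSO (SD, n = 2), without overlap. The members' median log2 difference was 0.08 against -0.12 over all genes, and it was 0.10 to 0.31 with the other scalings and the GC corrections. Minus the all-gene median of the same fit, it was 0.19 with TPM and 0.12 to 0.26 with the others. With 1 library left out the members' median ranged from -0.02 to 0.21. For RES against DMSO with depc, 0 of 57 were called (0.902% of all genes), 3 had an unadjusted p under 0.05 and limma-voom called 0 (3 unadjusted). The lowest adjusted p, 0.0925, was for NDUFB10, a membrane-arm subunit, at 230 ± 27.1 TPM under RES and 367 ± 18.7 under DMSO. The median there was 0.10 against 0.15 over all genes, and it was -0.10 with upper-quartile scaling, -0.085 with median-of-ratios scaling, -0.075 with the GC trend removed and -0.05 with GC and length removed. Minus the all-gene median of the same fit, it was -0.045 with TPM and -0.11 to -0.027 with the other scalings and the GC corrections.

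With poly I:C in both arms, 2-CM against DMSO had 0 of 57 called by limma (0.105% of all genes), 6 at an unadjusted p under 0.05 and 0 by limma-voom (12 unadjusted). The members' median was 0.01 where that over all genes was 0.59, and it was -0.77 to -0.29 with the other scalings and the GC corrections. Minus the all-gene median of the same fit, it was -0.58 with TPM and -0.84 to -0.40 with the others. The crossed block, whose p-values do not hold as a test, called 8 members higher and 13 lower. Of all genes it called 48.3% higher and 1.87% lower (50.1% in either direction). Of the 3 fibroblast markers tested 1 was higher, and its part was not tested. COX7A2 and COX5B of complex IV had the smallest unadjusted p. COX7A2 was at 509 ± 8.78 TPM under 2-CM and 737 ± 0.6997 under DMSO, and COX5B at 576 ± 55.0 and 966 ± 180. RES against DMSO with poly I:C had 0 of 57 called (0.151% of all genes), 3 at an unadjusted p under 0.05 and 0 by limma-voom (6 unadjusted). The members' median there was -0.16 against 0.28 over all genes, and it was -0.49 to -0.24 with the other scalings and the GC corrections. Minus the all-gene median of the same fit, it was -0.44 with TPM and -0.52 to -0.27 with the others. NDUFB10 was lowest in p there too, at 206 ± 28.1 TPM under RES and 292 ± 34.2 under DMSO. With the GC trend removed, 11 members were called lower for 2-CM in the poly I:C arms, where 3.29% of all genes were called lower. The same fit called 5 lower for RES in the poly I:C arms, against 3.95% of all genes, and 5 lower for RES in the depc arms, against 6.49%.

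The genes around the members were read in the same fit, and their changes are given on the log2 scale. Their counts under 2-CM stand beside 35.8% of all genes called higher and 11.5% lower, and an all-gene median of 0.61 that was 0.03 with median-of-ratios scaling. Of the 16 nuclear subunits of ATP synthase, 5 rose and 4 fell with poly I:C under 2-CM, with ATP5F1D, of the central stalk, at -1.30. Under DMSO ATP5MG rose alone, from 256.9 and 242.3 TPM to 500.2 and 516.3, a log2 change of 1.02 (SE 0.14, adjusted p = 0.0119). Of the 43 assembly factors of complexes I to IV, 25 rose and 8 fell under 2-CM, and 0 were called under DMSO or RES. TMEM126B, needed to build the complex I membrane arm, had the largest rise, 2.73, followed by SDHAF3, a complex II assembly factor, at 2.70. Of 7 electron carriers and supercomplex genes 4 rose and 1 fell under 2-CM, with cytochrome c (CYCS) at 2.17 and ETFB at -1.03.

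Of 12 regulators of respiratory genes 6 rose under 2-CM and 1 fell. The rises were TFAM, which packages mitochondrial DNA and activates its transcription, at 2.85, GABPA at 2.50, GABPB1, TFB2M, YY1 and SP1. The fall was the mitochondrial RNA polymerase POLRMT, at -1.32 (SE 0.30, adjusted p = 0.0303). NRF1 was not called, at 0.69. POLRMT measured 44.3 and 58.6 TPM with depc under 2-CM and 18.9 and 20.8 with poly I:C, and its transcript has 66.1% GC against 36.0% for TFAM. Under DMSO only PPRC1, a coactivator of the PGC-1 family, was called among them, lower at -0.79. The tissue-restricted isoforms COX4I2 and COX6A2 were at 0 in every library, and NDUFA4L2 was the 1 of 7 such genes tested, at 0.176 to 2.58 TPM, and rose under DMSO by 1.13 (adjusted p = 0.0465).

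The mitochondrially encoded mRNAs, partners of the nuclear subunits, held 25.1% of TPM in the DMSO depc group, 27.6% with poly I:C under DMSO, 17.0% and 17.7% under 2-CM, and 23.8% and 28.7% under RES. Of the 13 genes 2 rose with poly I:C under 2-CM (MT-ND2 at 0.59 and MT-CYB at 0.55) and 0 fell. For 2-CM against DMSO 4 were called lower in each transfection, where 0.0407% of all genes were called with depc and 0.105% with poly I:C. All 13 fold changes were negative there with depc (median -0.58) and 10 with poly I:C (median -0.51). A lower mitochondrial share raises every nuclear TPM in the same library, members included; its part in the members' values was not tested.

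Overlapping genes limit some members: 19 of 57 overlap another annotated gene with a mean level of 1 TPM or more. Such a gene lies on the same strand for 10 members and on the opposite strand for 13. Overlaps with genes below that level were not counted. The library kit keeps the strand, but the StringTie command in the file headers names no strand option, so reads of overlapping genes may not be told apart. NDUFC2, whose locus is shared with a read-through gene on the same strand, and NDUFA13 are among the former, and NDUFB6, NDUFB11 and COX6C among the latter. Copies elsewhere in the genome held 12.7% to 18.6% of the summed TPM for UQCRFS1 and 5.1% to 26.9% for NDUFA5.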

How the data were processed

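The 12 libraries of poly(A) RNA from NS-SV-AC cells, 2 in each of 6 groups, were read from transcript files that the authors deposited. Per the file headers they were made with StringTie 2.0.4 on the GENCODE 32 annotation, and per the submitters' processing notes reads were demultiplexed with bcl2fastq 2.20 and aligned with HISAT2 2.1.0 to hg38. The files hold TPM, FPKM and a coverage signal per transcript as deposited. The authors also deposited tables of log2 fold changes and p-values for poly I:C against depc, quoted only where named, and DESeq2 is among the tools in the submitters' processing notes.

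TPM was summed over the transcripts of each gene and used as log2(TPM + 1). Genes at 1 TPM or more in at least 2 libraries (17185) were fitted with limma 3.58.1 (R 4.3.3, trend and robust moderation) with 1 mean per group over all 12 libraries, and p-values were adjusted by Benjamini-Hochberg over all these genes, with a threshold of 0.05. Reads were estimated from coverage, transcript length and the read length of 101 bases for depth and for limma-voom. GC content is that of a gene's most abundant transcript in GENCODE 44, with which 49338 of 60609 genes share identifier, version, start and end. A transcript without an entry of its version took the value of another version. Where there was none, the mean over the gene's other transcripts was used. In all 17170 tested genes had a value. The GC correction removed from each library a lowess trend on GC (span 0.3). The trend was fitted to the library's log2 deviation from the mean over all libraries. The limma fit was also run on simulated data with independent noise, as a check of the code only.

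Levels in every library are given for the highest and lowest member of each complex by mean TPM, the members with the largest and smallest 2-CM fold change in each complex, and up to 3 called members per comparison and direction. NDUFV1, NDUFB6, NDUFV3, NDUFA2, NDUFB9, NDUFB10, COX7A2, SDHB and COX5B were named further after their values were seen. The members and all gene lists were chosen with earlier results of these data known. Alternatives were other scalings (FPKM, upper quartile, median of ratios, limma-voom), a pseudocount of 0.1, no filter, GC and length corrections, a replicate block, fits to the compared groups alone, gene copies added, and each library left out. Crossed replicate numbers, a fit without robust moderation and other scalings of the summed levels were added after the data were seen. A median over the members was called moved where it differed by more than 0.179, the SD of that median between replicates.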

Additional observations from a re-analysis of the deposited data

How the results depend on the processing

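With any 1 library left out the number of members called ranged from 0 to 4 for poly I:C under DMSO and from 0 to 39 under 2-CM, and was 0 in the 7 other comparisons. The zeros under 2-CM came from leaving out any of its own 4 libraries (0.215% to 0.25% of all genes called), which leaves 1 arm with a single library assumed to vary like the other groups. The members' median log2 fold change then ranged from 0.27 to 0.55 under DMSO, from 0.17 to 0.40 under 2-CM and from 0.033 to 0.39 under RES. It ranged from -0.22 to -0.02 for the 2-CM minus DMSO response, from -0.37 to -0.076 for the RES minus DMSO response, from -0.02 to 0.21 for 2-CM and -0.08 to 0.15 for RES against DMSO with depc, and from -0.09 to 0.04 and -0.27 to -0.16 with poly I:C. Among called members, 238 of 396 such values kept their side of the threshold and 158 did not, and 350 of 462 kept it under the other alternatives.

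Members called under DMSO, with the share of all genes, numbered 0 with FPKM (0.605%), no filter (0.865%) and the compared groups alone (0.0291%), 1 with upper-quartile scaling (0.687%), median-of-ratios scaling (0.698%), limma-voom (1.32%) or copies added (3.57%), 3 without robust moderation (4.08%), 18 with GC (16.9%) and 12 with GC and length correction (9.32%). Under 2-CM the count was 0 with no filter on low genes (0.585% of all genes), where 39 had an unadjusted p under 0.05, and 43 with the compared groups alone, where 69.6% of all genes were called. GC and GC with length correction gave 11 and 4 for 2-CM against DMSO with poly I:C (5.94% and 3.34% of all genes), 5 and 9 for RES against DMSO with depc (12.8% and 13.6%), and 5 and 4 with poly I:C (7.72% and 7.68%). The cause was not tested.

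Same-numbered replicates deviated together (r from 0.15 to 0.76) except in pairs with the RES poly I:C group (-0.80 to -0.31). Since not every pair deviated together, the numbers were not taken to pair the samples. The crossed numbers used below were chosen from these same deviations, so the p-values of that block do not hold as a test. With a replicate block the calls were 0 under DMSO (1.83% of all genes) and 36 under 2-CM (50.2%). The block with GC correction gave 19 under DMSO (15.5% of all genes), 26 under 2-CM (28.5%), 7 for 2-CM (4.21%) and 5 for RES (6.69%) against DMSO with poly I:C and 5 for RES with depc (11.8%), and the same medians as the GC correction alone. A block with the RES poly I:C numbers crossed called 24 under DMSO (17.6% of all genes), 45 under 2-CM (67.9%), 2 under RES (8.06%), 20 for the 2-CM minus DMSO response (41.8%), 21 for 2-CM (50.1%) and 2 for RES (5.05%) against DMSO with poly I:C, and 3 for RES with depc (8.0%).

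The members' median under 2-CM was 0.11 with limma-voom, -0.26 with GC and length, -0.34 with upper-quartile, -0.36 with GC and -0.55 with median-of-ratios. For the 2-CM minus DMSO response it was -0.45 with FPKM, -0.46 with limma-voom, -0.49 with GC and length, -0.74 with GC, -0.87 with upper-quartile and -1.13 with median-of-ratios. For 2-CM against DMSO with poly I:C it was -0.29, -0.37, -0.39, -0.58, -0.68 and -0.77 in the same order, and with depc 0.31 with median-of-ratios. For RES against DMSO it was -0.10 with upper-quartile and -0.085 with median-of-ratios with depc, and -0.41 with GC, -0.47 with upper-quartile and -0.49 with median-of-ratios with poly I:C. The all-gene medians moved with these settings too, and the members' differences from them are given with each comparison above.

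With FPKM the log2 ratio of summed levels for complex I was 0.28 (DMSO), -0.42 (2-CM) and 0.039 (RES), 0.58 under 2-CM for complex II, 0.34, -0.39 and 0.067 for complex III, and 0.47 under DMSO and -0.44 under 2-CM for complex IV. Added after the data were seen, upper-quartile scaling gave ratios for complexes I to IV under 2-CM of -0.90, 0.11, -0.86 and -0.91, and median-of-ratios scaling -1.12, -0.11, -1.08 and -1.14. Under DMSO they gave 0.24 and 0.28 for complex I, 0.30 and 0.34 for complex III, and 0.43 and 0.47 for complex IV. Called members that changed sign under 2-CM were NDUFB4 (-0.20), NDUFA8 (-0.10) and COX7C (-0.047) with median-of-ratios, NDUFB4 (-0.66), COX7C (-0.82), UQCRFS1 (-0.20) and NDUFB1 (-0.28) with GC, with or without the block, and NDUFB4 (-0.54), COX7C (-0.69), NDUFC2 (-0.051), UQCRFS1 (-0.30) and NDUFB1 (-0.082) with GC and length. Counts near the filter, such as the 16 to 69 reads of NDUFA3, limit what depth can show.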
